A study of Mus musculus with 48 samples.

Results

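Mid- and late anagen were compared in ventral skin of C57BL/6 mice, in 2 libraries labelled mid-anagen and 3 labelled late anagen, which are 5 of the 48 samples of the series and were chosen by their labels alone. The labels name no treatment or transgene, and each library was made from RNA of whole skin. The series covers chin, ventral and dorsal skin at 6 stages of the hair cycle, together with ear samples. The question it put to these libraries was whether signals that start or stop hair growth follow different courses in the 3 skin domains. Age, sex and litter of the mice are not given by the labels, nor whether replicates came from separate mice, so p-values measure the spread between these samples, which may be partly technical.

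Anagen is the growth phase of the hair follicle. In it, matrix cells at the follicle base divide around the dermal papilla, a cluster of signalling fibroblasts, and their daughters form the hair shaft, built of hair keratins cross-linked by keratin-associated proteins, and the inner root sheath that moulds it. Melanocytes in the bulb pass pigment to the shaft, while fat, dermal fibroblasts and immune cells of the surrounding skin also change through the cycle. WNT signals favour growth and BMP signals hold it back.

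Depth, estimated from the step size of low values, was 9665978 to 13910060 fragments per library. Replicates differed by more than sampling noise in both groups. The median squared difference between the mid-anagen libraries was 6.15 times that of counting noise, against 2.04 to 2.62 times in pairs of late anagen libraries. The mid-anagen libraries differed in skeletal muscle signal, with summed levels of 28 muscle genes of 1245 and 2065 FPKM in mid-anagen and 1937, 1884 and 1876 FPKM in late anagen. At other ventral stages some levels went against the labels. Libraries labelled ventral early anagen had the lowest summed level of 24 mitosis genes of the 6 ventral stages, at 78.1 to 93.2 FPKM, and those labelled competent telogen the highest, at 761 to 890 FPKM. Libraries labelled refractory telogen held 107271 to 133832 FPKM of keratin-associated protein transcripts, a product of growing follicles. A ventral catagen library carries an ear location among its labels, and it enters only the stage levels and the fits over all stages. The 5 libraries compared here held 86047 to 138885 FPKM of the same transcripts.

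In ventral skin, late anagen differed from mid-anagen in 4999 of 16131 genes tested. Levels are FPKM, fragments per kilobase of transcript scaled to library size, and fold changes are on the log2(FPKM + 1) scale, which understates the change of low genes. A gene was said to rise or fall where limma's moderated test gave a Benjamini-Hochberg adjusted p below 0.05. By this rule 2557 genes rose (15.9% of those tested) and 2442 fell (15.1%). In each of the 4999 the libraries of the 2 stages did not overlap, which a call in groups this small nearly requires. The share that did not overlap among all genes tested was not counted, so this adds no support to the calls. Falls were the larger changes: 446 genes fell and 280 rose by at least 1 on the log2 scale, and 60 fell and 34 rose by at least 2. The median change of all genes was 0.04. Leaving out 1 late anagen library lowered the number that rose to 1462, 1494 or 1572 (without replicate 1, 2 or 3).

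**Figure D1:**
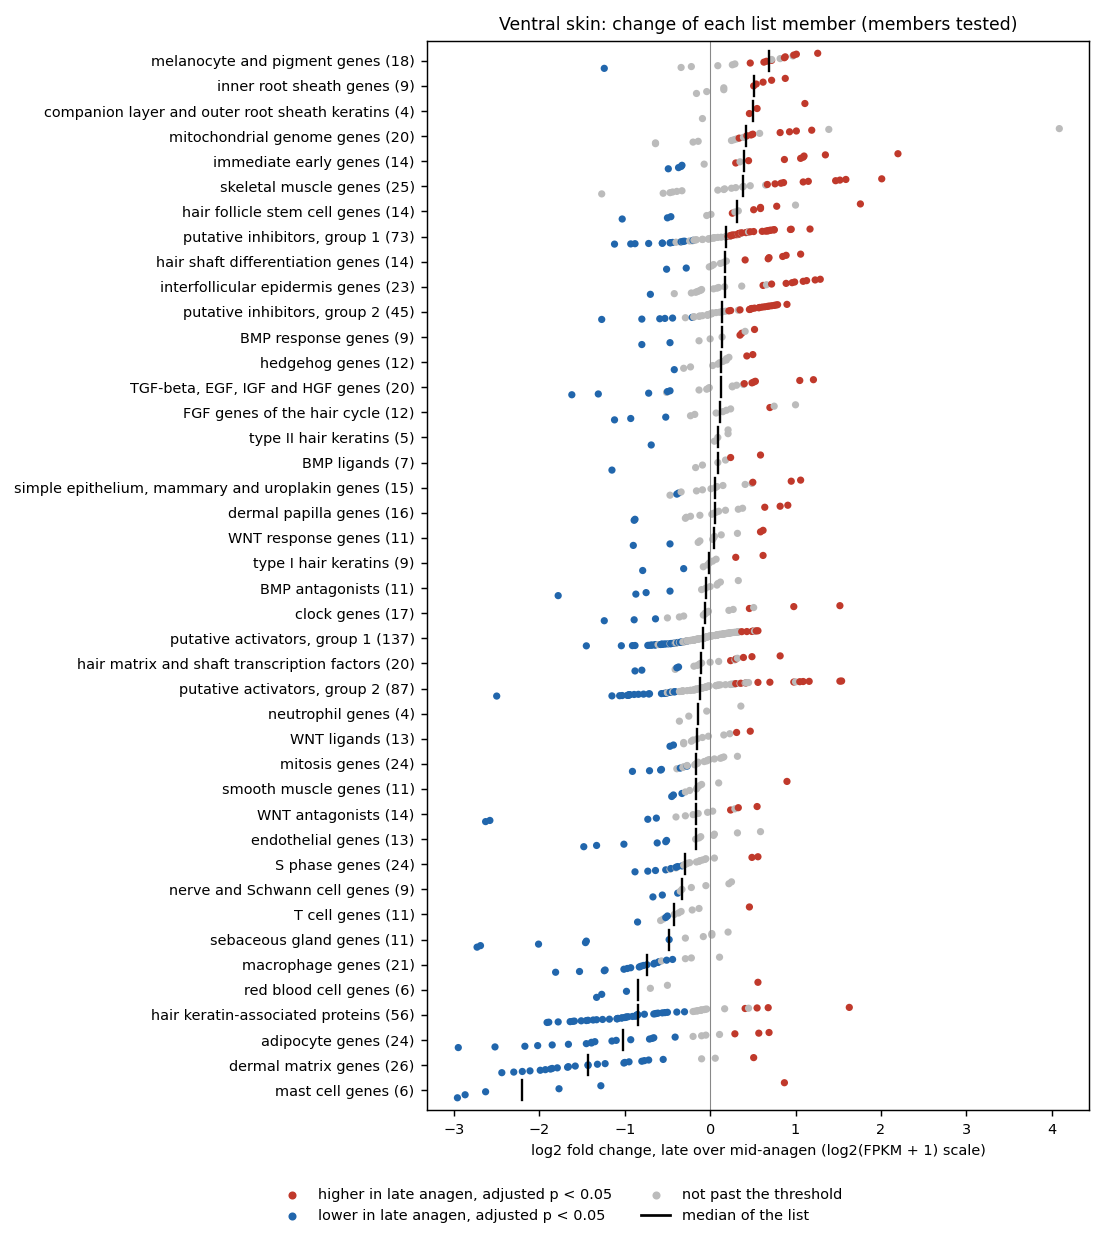
Each point is 1 gene of a list, at its log2 fold change of late over mid-anagen (x axis, log2(FPKM + 1) scale), and each row is a list with the number of members tested. Black ticks are medians, which run from -2.2 for mast cell genes to 0.69 for melanocyte and pigment genes.

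Nearly all genes of the dermal matrix fell. Of 26 genes for collagens, elastic fibres and other fibroblast products, 23 fell and 1 rose, with a median of -1.43. Among all genes tested 15.1% fell and 15.9% rose. Their summed level was 6015 and 5909 FPKM in mid-anagen and 2288, 2261 and 2249 FPKM in late anagen. Eln, the elastin gene (ENSMUSG00000029675.12, GRCm38 chr5:134702593-134747323, - strand), stood at 54.99 and 52.5 FPKM in mid-anagen and 8.69, 9.3 and 9.36 FPKM in late anagen (log2 fold change -2.44 ± 0.07 (SE), adjusted p = 0.00044). Dpt, which encodes the matrix protein dermatopontin, stood at 197 and 181 FPKM in mid-anagen and 40.4, 35.5 and 36.8 FPKM in late anagen (log2 fold change -2.30 ± 0.08 (SE), adjusted p = 0.00044). Libraries within a stage lay close together for both genes, and those of different stages far apart. Col14a1, a fibril-associated collagen, was at 15.3 and 15.04 against 2.75, 2.25 and 2.6 FPKM (log2 fold change -2.20 ± 0.10 (SE), adjusted p = 0.000555). Calls of single genes were followed through up to 14 alternatives, which leave out the fit with a replicate block, given in the closing section. The 1 member that rose was Tnc, encoding tenascin C, by 0.51 (adjusted p = 0.0363), a call lost in 5 of 14 alternatives. In whole skin, fewer cells of a type cannot be told apart from less RNA per cell.

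Ccdc80, a secreted protein of fibroblasts and fat cells, was among the 10 genes that fell most. It was at 160.0 and 161 FPKM in mid-anagen and 13.6, 14.2 and 14.8 FPKM in late anagen (log2 fold change -3.41 ± 0.06 (SE), adjusted p = 0.000167). Across the ventral cycle it was high in the libraries labelled competent telogen, at 189 to 244 FPKM, and low in those labelled early anagen, at 28.9 to 30.5 FPKM. Mid-anagen thus exceeded both early and late anagen. The dermal matrix list took a similar course, with summed levels of 3458 to 3494 FPKM in early anagen and 9456 to 9673 FPKM in competent telogen.

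Mast cell genes had the lowest median of the lists with at least 4 members tested. Of the 6 mast cell genes tested, 1 rose and 5 fell (median log2 fold change -2.20), against 15.9% and 15.1% of all genes. Tpsb2, a mast cell tryptase (ENSMUSG00000033825.9, GRCm38 chr17:25366305-25369098, + strand), was at 32.4 and 36.1 FPKM in mid-anagen and 3.99, 3.17 and 3.47 FPKM in late anagen (log2 fold change -2.96 ± 0.11 (SE), adjusted p = 0.00044). Cma1, the mast cell chymase, was at 55.3 and 63.5 FPKM in mid-anagen and 6.5, 7.54 and 7.76 FPKM in late anagen (log2 fold change -2.87 ± 0.11 (SE), adjusted p = 0.00044), and Cpa3, carboxypeptidase A3, fell by 2.63 on the log2 scale (adjusted p = 0.000555). The member that rose was Kit, which melanocytes also express, by 0.87. All 3 proteases were several times lower in each late anagen library than in either mid-anagen library.

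Macrophage genes moved the same way. Of the 21 macrophage genes tested, 0 rose and 17 fell (median log2 fold change -0.74), against 15.9% and 15.1% of all genes. C1qc, a chain of complement C1q, was at 35.1 and 27.4 FPKM in mid-anagen and 8.24, 7.77 and 8.46 FPKM in late anagen (log2 fold change -1.81 ± 0.12 (SE), adjusted p = 0.00108), and Lyz2, lysozyme, at 124 and 105 against 46.6, 47.9 and 48.9 FPKM (log2 fold change -1.24 ± 0.08 (SE), adjusted p = 0.00117). The 11 T cell genes tested lay nearer to the shares of all genes, with 1 rise and 3 falls (median log2 fold change -0.42). Of 4 neutrophil genes tested, 0 passed the threshold in limma, and 1 had an unadjusted p under 0.05. That gene was S100a8, a calcium-binding alarmin, at 166 and 190.2 against 153, 148 and 148 FPKM, which passed in 5 of the alternatives, among them all 3 other scalings. Of 13 endothelial genes, 6 fell and 0 rose (median -0.17), led by the tight junction gene Cldn5 (log2 fold change -1.48 ± 0.13 (SE), adjusted p = 0.00207). Of the 6 red blood cell genes tested, 1 rose and 3 fell (median log2 fold change -0.84), the alpha globin Hba-a2 being at 812 and 1087 against 377, 358 and 387 FPKM. Of the 9 nerve and Schwann cell genes tested, 0 rose and 3 fell (median log2 fold change -0.33). These 3 are 33.3% of a short list, against 15.1% of all genes.

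Of the fat and sebaceous gland genes that passed, most fell. Of the 24 adipocyte genes tested, 3 rose and 17 fell (median log2 fold change -1.01), against 15.9% and 15.1% of all genes. Cidec, which coats the lipid droplets of fat cells, was at 87.4 and 51.5 FPKM in mid-anagen and 8.58, 7.09 and 7.77 FPKM in late anagen (log2 fold change -2.95 ± 0.23 (SE), adjusted p = 0.00144). Cfd, the adipokine adipsin, was at 858 and 649.6 FPKM in mid-anagen and 165, 169 and 163 FPKM in late anagen (log2 fold change -2.17 ± 0.12 (SE), adjusted p = 0.000824). The 3 that rose were Fabp4, a fatty acid carrier, at 883 and 793 against 1349, 1419 and 1285 FPKM, and Fasn and Acly, enzymes of fatty acid synthesis, by 0.57, a call lost in 1 of 14 alternatives, and 0.29, a call lost in 6 of 14 alternatives. Of the 11 sebaceous gland genes tested, 0 rose and 6 fell (median log2 fold change -0.48). Their summed level stayed about the same, at 1523 and 1514 FPKM in mid-anagen and 1503, 1544 and 1524 FPKM in late anagen. Awat2, a wax synthase of the gland, was at 19.6 and 35.6 FPKM in mid-anagen and 2.62, 3.19 and 3.71 FPKM in late anagen (log2 fold change -2.73 ± 0.26 (SE), adjusted p = 0.00248), and its relative Awat1 fell by 2.01 on the log2 scale (adjusted p = 0.00136). The mid-anagen libraries lay further apart for Cidec and Awat2 than the late anagen ones.

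Genes of the hair shaft divided by family, and their counts stand against 15.9% rising and 15.1% falling among all genes. Of 56 keratin-associated protein genes tested, 40 fell and 4 rose (median -0.85), and their summed level was 137182 and 138885 FPKM in mid-anagen and 90597, 86047 and 86551 FPKM in late anagen. Krtap4-2 (ENSMUSG00000044649.4, GRCm38 chr11:99634111-99635084, - strand) was at 2006 and 1683 FPKM in mid-anagen and 459, 513 and 496 FPKM in late anagen (log2 fold change -1.91 ± 0.10 (SE), adjusted p = 0.000736). The 5 members on chromosome 7 all fell, as did 17 of 23 on chromosome 11, while on chromosome 16 there were 16 falls and all 4 rises among 24 tested. The largest rise was that of Krtap20-2, at 26.9 and 30.4 FPKM in mid-anagen and 108, 79.6 and 87.6 FPKM in late anagen (log2 fold change 1.63 ± 0.14 (SE), adjusted p = 0.00192). Near-identical members of this family can share reads, so values of single members are uncertain. Of the 9 type I hair keratins tested, 2 rose and 2 fell (median log2 fold change -0.01), near the shares of all genes. Krt36 rose by 0.62 and Krt39 fell by 0.79 on the log2 scale, a call lost in 1 of 14 alternatives. Of 5 type II hair keratins tested, Krt86 alone fell, at 1639 and 1523 against 935, 998 and 1005 FPKM (log2 fold change -0.69 ± 0.07 (SE), adjusted p = 0.00281).

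Several inner root sheath genes rose. Of the 9 inner root sheath genes tested, 5 rose and 0 fell (median log2 fold change 0.51), against 15.9% and 15.1% of all genes. Krt25, a keratin of the sheath (ENSMUSG00000035831.2, GRCm38 chr11:99315516-99322951, - strand), was at 1239 and 1415 FPKM in mid-anagen and 2541, 2471 and 2311 FPKM in late anagen (log2 fold change 0.88 ± 0.09 (SE), adjusted p = 0.00268). Tchh, encoding the sheath and medulla protein trichohyalin, was at 1706 and 1528 FPKM in mid-anagen and 2427, 2549 and 2462 FPKM in late anagen (log2 fold change 0.62 ± 0.08 (SE), adjusted p = 0.00439), a call lost in 1 of 14 alternatives. Companion layer and outer root sheath keratins gave 3 rises in 4 tested, led by Krt6a at 137 and 149 against 320.5, 313 and 297 FPKM (log2 fold change 1.11 ± 0.07 (SE), adjusted p = 0.000947). Of the 14 hair shaft differentiation genes tested, 6 rose and 2 fell (median log2 fold change 0.17). Among them Padi3, an enzyme that citrullinates trichohyalin, rose by 0.85 (adjusted p = 0.0022), a call lost in 2 of 14 alternatives, and Tgm3, a transglutaminase, by 0.89 (adjusted p = 0.00365), a call lost in 1 of 14 alternatives.

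Of 20 transcription factors of the matrix and shaft tested, 5 rose and 4 fell (median log2 fold change -0.11), against 15.9% and 15.1% of all genes. Gata3, a factor of the inner root sheath, was at 420.0 and 408 FPKM in mid-anagen and 205, 236 and 236 FPKM in late anagen (log2 fold change -0.88 ± 0.08 (SE), adjusted p = 0.00236). Msx1 fell by 0.80 on the log2 scale, and Trps1 rose by 0.82. Division genes fell in part. Of the 24 S phase genes tested, 2 rose and 8 fell (median log2 fold change -0.29). Of the 24 mitosis genes tested, 0 rose and 6 fell (median log2 fold change -0.16). Mcm6, a subunit of the replicative helicase, was at 26.2 and 31.1 against 14.8, 15.1 and 15.5 FPKM (log2 fold change -0.88 ± 0.09 (SE), adjusted p = 0.00313), and Ccnb2, a mitotic cyclin, at 39.98 and 41.5 against 22.4, 21.5 and 19.8 FPKM (log2 fold change -0.91 ± 0.08 (SE), adjusted p = 0.00179). Mcm3, another helicase subunit, rose by 0.56 (adjusted p = 0.016), a call lost in 1 of 14 alternatives.

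Pigment genes that passed rose, with 1 exception. Of the 18 melanocyte and pigment genes tested, 9 rose and 1 fell (median log2 fold change 0.69), against 15.9% and 15.1% of all genes. Trpm1, a channel of melanocytes, was at 15.6 and 19.5 FPKM in mid-anagen and 48.3, 41.8 and 39.8 FPKM in late anagen (log2 fold change 1.26 ± 0.13 (SE), adjusted p = 0.00281). Dct, which makes a melanin precursor, was at 43.4 and 65.1 FPKM in mid-anagen and 107, 106 and 105 FPKM in late anagen (log2 fold change 0.98 ± 0.17 (SE), adjusted p = 0.0108). The fall was that of Ednrb, the endothelin receptor B, at 32.7 and 35.3 against 13.8, 13.6 and 13.9 FPKM (log2 fold change -1.24 ± 0.07 (SE), adjusted p = 0.000824), a receptor that cells other than melanocytes also carry. Summed levels of the list were 298 and 455 FPKM in mid-anagen and 632, 624 and 608 FPKM in late anagen. Melanocyte genes were lower still in ventral early anagen, where Dct was at 5.84 to 7.81 FPKM.

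**Figure D2:**
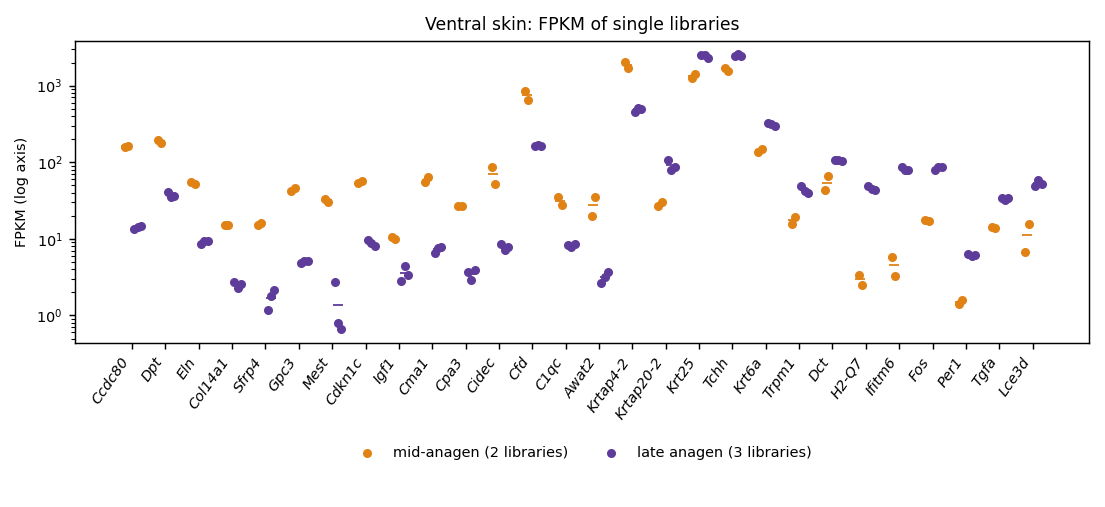
FPKM (y axis, log axis) of 28 genes in each ventral library: orange for the 2 mid-anagen and purple for the 3 late anagen libraries, with a short line at each mean. The stages do not overlap for any of these genes, all of which were chosen among genes that passed the threshold.

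WNT ligands and response genes passed about as often as all genes, of which 15.9% rose and 15.1% fell. Of the 13 WNT ligands tested, 2 rose and 2 fell (median log2 fold change -0.15). Of the 14 WNT antagonists tested, 3 rose and 4 fell (median log2 fold change -0.17). Of the 11 WNT response genes tested, 2 rose and 2 fell (median log2 fold change 0.04). The largest changes were falls of 2 secreted antagonists. Sfrp4 was at 15.2 and 15.9 FPKM in mid-anagen and 1.19, 1.79 and 2.13 FPKM in late anagen (log2 fold change -2.63 ± 0.17 (SE), adjusted p = 0.00107), and Sfrp2 at 7.78 and 18.1 FPKM in mid-anagen and 1.24, 1.04 and 1.2 FPKM in late anagen (log2 fold change -2.58 ± 0.32 (SE), adjusted p = 0.00468). Other members stayed nearer to 0, with rises of the ligand Wnt5a by 0.47, a call lost in 3 of 14 alternatives, and of the antagonist Dkkl1 by 0.55. Axin2, a target and feedback inhibitor of WNT signalling, was at 2.74 and 2.64 against 4.55, 4.67 and 4.85 FPKM (log2 fold change 0.62 ± 0.09 (SE), adjusted p = 0.00723), while Znrf3, an E3 ligase that removes WNT receptors and is itself a target, was at 48.4 and 48.8 against 24.3, 26.3 and 26.1 FPKM (log2 fold change -0.90 ± 0.07 (SE), adjusted p = 0.00131).

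Among BMP genes, antagonists fell where they passed the threshold. Of the 7 BMP ligands tested, 2 rose and 1 fell (median log2 fold change 0.09). Of the 11 BMP antagonists tested, 0 rose and 4 fell (median log2 fold change -0.05), against 15.9% and 15.1% of all genes. Of the 9 BMP response genes tested, 3 rose and 2 fell (median log2 fold change 0.14). Fstl1, a secreted antagonist that fibroblasts also make, was at 165 and 146 FPKM in mid-anagen and 45.8, 42.8 and 44.5 FPKM in late anagen (log2 fold change -1.78 ± 0.08 (SE), adjusted p = 0.000499), and Nbl1 at 70.8 and 75.2 against 39.4, 42.3 and 37.1 FPKM (log2 fold change -0.87 ± 0.08 (SE), adjusted p = 0.00214). The ligand Bmp3, which opposes other BMPs, was at 4.73 and 4.19 against 1.35, 1.65 and 1.38 FPKM (log2 fold change -1.15 ± 0.12 (SE), adjusted p = 0.00297). Id1, a target of BMP signalling, rose by 0.52 (adjusted p = 0.00505), a call lost in 1 of 14 alternatives, and Bambi, a decoy receptor, fell by 0.47 on the log2 scale (adjusted p = 0.00581). Bambi belongs to the BMP antagonist, BMP response and WNT response lists, so its fall is counted in each of them.

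Of the 12 hedgehog genes tested, 2 rose and 1 fell (median log2 fold change 0.13), against 15.9% and 15.1% of all genes. Of the 12 FGF genes of the hair cycle tested, 1 rose and 3 fell (median log2 fold change 0.11), a median that became -0.52 at a minimum of 5 FPKM. Fgf5, the signal that ends anagen, was at 11.1 and 10.9 FPKM in mid-anagen and 5.24, 5.85 and 4.84 FPKM in late anagen (log2 fold change -0.93 ± 0.10 (SE), adjusted p = 0.00326), and so was lower in late than in mid-anagen. Fgf22 was at 73.6 and 59.97 against 30.7, 29.4 and 30.04 FPKM (log2 fold change -1.12 ± 0.10 (SE), adjusted p = 0.00204). Of the 20 TGF-beta, EGF, IGF and HGF genes tested, 6 rose and 5 fell (median log2 fold change 0.12). Tgfa, a ligand of the EGF receptor, was at 14.3 and 13.7 FPKM in mid-anagen and 34.4, 31.8 and 34.5 FPKM in late anagen (log2 fold change 1.21 ± 0.07 (SE), adjusted p = 0.000891). Igf1, a growth factor of the dermal papilla and dermis, was at 10.4 and 9.87 FPKM in mid-anagen and 2.8, 4.45 and 3.4 FPKM in late anagen (log2 fold change -1.31 ± 0.17 (SE), adjusted p = 0.0049). Of the 16 dermal papilla genes tested, 3 rose and 2 fell (median log2 fold change 0.06). Of the 14 hair follicle stem cell genes tested, 6 rose and 3 fell (median log2 fold change 0.31). Sox9 was lower in late anagen at 143 and 142 against 97.5, 109 and 105 FPKM (log2 fold change -0.46 ± 0.07 (SE), adjusted p = 0.00743), a call lost in 1 of 14 alternatives, and it was the 1 cartilage list member tested.

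The study's own lists of candidate regulators, which it drew from a dorsal skin time series and not from these libraries, were also counted. Of the 137 putative activators of group 1 tested, 7 rose and 28 fell (median log2 fold change -0.08). Of the 87 putative activators of group 2 tested, 11 rose and 23 fell (median log2 fold change -0.12). Of the 73 putative inhibitors of group 1 tested, 31 rose and 13 fell (median log2 fold change 0.19). Of the 45 putative inhibitors of group 2 tested, 19 rose and 6 fell (median log2 fold change 0.14). Against 15.9% of all genes rising, 42.5% and 42.2% of the inhibitors rose. Against 15.1% falling, 20.4% and 26.4% of the activators fell, the first not far above the share of all genes. In the other directions, 5.11% and 12.6% of the activators rose, and 17.8% and 13.3% of the inhibitors fell. Among activators, Cdkn1c, a cell cycle inhibitor, was at 53.2 and 56.4 FPKM in mid-anagen and 9.78, 8.81 and 8.12 FPKM in late anagen (log2 fold change -2.50 ± 0.09 (SE), adjusted p = 0.00044). Nras, among the inhibitors that fell, was at 154 and 138 against 59.6, 59.4 and 60.5 FPKM (log2 fold change -1.27 ± 0.07 (SE), adjusted p = 0.000736).

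Interfollicular epidermis genes that passed were higher in late anagen with 1 exception, and immediate early genes moved both ways. Of the 23 interfollicular epidermis genes tested, 9 rose and 1 fell (median log2 fold change 0.17), against 15.9% and 15.1% of all genes. The summed level of the list was 16204 and 16037 FPKM in mid-anagen and 16596, 16221 and 16182 FPKM in late anagen. Late cornified envelope genes, a list given below, gave 3 rises and 8 falls among 20 tested. Flg, filaggrin of the cornified layer, was at 94.3 and 64.9 against 182, 187 and 187 FPKM (log2 fold change 1.23 ± 0.16 (SE), adjusted p = 0.00474). Of the 14 immediate early genes tested, 8 rose and 4 fell (median log2 fold change 0.40). Fos, a subunit of the AP-1 factor, was at 17.8 and 17.1 FPKM in mid-anagen and 79.04, 86.4 and 85.3 FPKM in late anagen (log2 fold change 2.20 ± 0.07 (SE), adjusted p = 0.00044), and its partner Junb fell by 0.49 on the log2 scale, a call lost in 2 of 14 alternatives. Mid-anagen held the lowest Fos of the 6 ventral stages, below the 39.9 to 44.8 FPKM of catagen. Of the 17 clock genes tested, 3 rose and 3 fell (median log2 fold change -0.06), near the 15.9% and 15.1% of all genes. Per1 was at 1.41 and 1.58 FPKM in mid-anagen and 6.32, 5.96 and 6.11 FPKM in late anagen (log2 fold change 1.52 ± 0.10 (SE), adjusted p = 0.00104) and Per3 at 10.5 and 10.2 against 4.51, 3.85 and 3.23 FPKM (log2 fold change -1.24 ± 0.13 (SE), adjusted p = 0.00326). The time of day of sampling is not given by the labels, and its part in these values was not tested.

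Markers of other tissues were counted too, against 15.9% of all genes rising and 15.1% falling. Of the 25 skeletal muscle genes tested, 10 rose and 0 fell (median log2 fold change 0.39). Pvalb, a calcium buffer of fast muscle, was at 17.6 and 15.8 FPKM in mid-anagen and 73.6, 69.4 and 66.9 FPKM in late anagen (log2 fold change 2.01 ± 0.08 (SE), adjusted p = 0.00044), while the summed muscle level of the second mid-anagen library exceeded that of each late anagen library. Of the 11 smooth muscle genes tested, 1 rose and 3 fell (median log2 fold change -0.16). Of the 15 simple epithelium, mammary and uroplakin genes tested, 3 rose and 2 fell (median log2 fold change 0.06), shares near those of all genes. Of the 20 mitochondrial genome genes tested, 8 rose and 0 fell (median log2 fold change 0.42). Xist, which silences an X chromosome in females, was at 4.94 and 3.8 FPKM in mid-anagen and 12.2, 11.8 and 12.7 FPKM in late anagen (log2 fold change 1.31 ± 0.12 (SE), adjusted p = 0.00206), and the Y-linked genes Ddx3y, Uty and Eif2s3y did not exceed 0.3 FPKM in any of the 5 libraries. The part of these differences in the other results was not tested.

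Among the 10 genes that rose most were 2 of the MHC class I family, H2-Q7 (ENSMUSG00000060550.15, GRCm38 chr17:35439155-35443773, + strand) at 3.42 and 2.52 FPKM in mid-anagen and 49.3, 44.5 and 43.97 FPKM in late anagen (log2 fold change 3.57 ± 0.12 (SE), adjusted p = 0.00044) and H2-Q6 at 1.97 and 0.82 against 16.8, 17.5 and 18.3 FPKM (log2 fold change 2.99 ± 0.21 (SE), adjusted p = 0.00126). These are close relatives that can share reads. Ifitm6, of an interferon-induced family, was at 5.74 and 3.24 FPKM in mid-anagen and 86.5, 78.97 and 78.1 FPKM in late anagen (log2 fold change 3.94 ± 0.20 (SE), adjusted p = 0.000702). Across ventral stages H2-Q7 was at 22.6 to 26.2 FPKM in early anagen and 17.5 to 23.04 FPKM in catagen, so mid-anagen stood out as low. A list of 19 class I and antigen processing genes was put together after these values were seen, so its count was partly fixed in advance. It gave 11 rises and 1 fall, against 15.9% and 15.1% of all genes. B2m, the common light chain, was at 708 and 565 FPKM in mid-anagen and 1445, 1413 and 1397 FPKM in late anagen (log2 fold change 1.16 ± 0.10 (SE), adjusted p = 0.0022).

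Wfdc3, a whey acidic protein family member, rose from 0.67 and 0.69 FPKM to 12.7, 16.6 and 15.8 FPKM (log2 fold change 3.24 ± 0.13 (SE), adjusted p = 0.000476). Spink12, a protease inhibitor, was at 2.83 and 2.68 against 17.9, 21.9 and 19.02 FPKM (log2 fold change 2.45 ± 0.11 (SE), adjusted p = 0.000499), and Lce3d, a late cornified envelope gene, at 6.68 and 15.5 against 48.5, 58.8 and 51.2 FPKM (log2 fold change 2.26 ± 0.32 (SE), adjusted p = 0.00644). Rn18s-rs5, a ribosomal RNA related sequence, was at 340.2 and 477 against 2659, 2973 and 2167 FPKM. The other 3 of the 10 are small RNAs listed at 0 in both mid-anagen libraries: Mir5117 at 30.8, 31.8 and 21.4 FPKM in late anagen, Snora65 at 16.1, 5.7 and 3.83 FPKM, and Snora26 at 7.5, 9.46 and 4.19 FPKM. The calls of Snora65 and Snora26 were each lost in 2 of 14 alternatives, the fits with all 43 skin libraries and with the ventral libraries of all 6 stages. Transcripts this short are poorly captured by full-length cDNA libraries, and 1 fragment gives them a high FPKM.

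Among the 10 that fell most, Snord55 and mmu-mir-1892, also small RNAs, were listed at 0 in all 3 late anagen libraries, against 23.9 and 48.9 and 45.3 and 22.7 FPKM in mid-anagen. The call of mmu-mir-1892 was lost in 1 of 12 alternatives. Mest, an imprinted gene of growing tissue (ENSMUSG00000051855.15, GRCm38 chr6:30723547-30748465, + strand), was at 33.4 and 30.2 FPKM in mid-anagen and 2.71, 0.79 and 0.67 FPKM in late anagen (log2 fold change -3.88 ± 0.36 (SE), adjusted p = 0.00235). Its mid-anagen level was the highest of the 6 ventral stages, the next being competent telogen at 7.33 to 12.6 FPKM. Nnat, imprinted as well, was at 49.1 and 34.1 against 3.27, 2.64 and 3.52 FPKM (log2 fold change -3.35 ± 0.18 (SE), adjusted p = 0.000795). A list of 18 imprinted and fetal growth genes was also chosen after the values were seen, so its count was partly fixed in advance. It had 16 tested, with 13 falls and 0 rises, against 15.1% and 15.9% of all genes. It included Gpc3, a proteoglycan that restrains growth, at 42.3 and 45.4 FPKM in mid-anagen and 4.86, 5.13 and 5.15 FPKM in late anagen (log2 fold change -2.89 ± 0.08 (SE), adjusted p = 0.00044). Serpinb6e was at 13.3 and 29.1 against 0.64, 0.94 and 0.33 FPKM (log2 fold change -3.68 ± 0.34 (SE), adjusted p = 0.00235), Tusc5, a fat cell gene, at 27.3 and 17.5 against 1.49, 1.72 and 1.65 FPKM (log2 fold change -3.13 ± 0.19 (SE), adjusted p = 0.000947), and Hamp2, a hepcidin, at 79.6 and 168 against 18.5, 10.7 and 10.8 FPKM (log2 fold change -3.07 ± 0.38 (SE), adjusted p = 0.00454). The remaining 3 were Ccdc80, Tpsb2 and Cidec. A list of late cornified envelope genes chosen in the same way gave 3 rises and 8 falls among 20 tested.

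**Figure D3:**
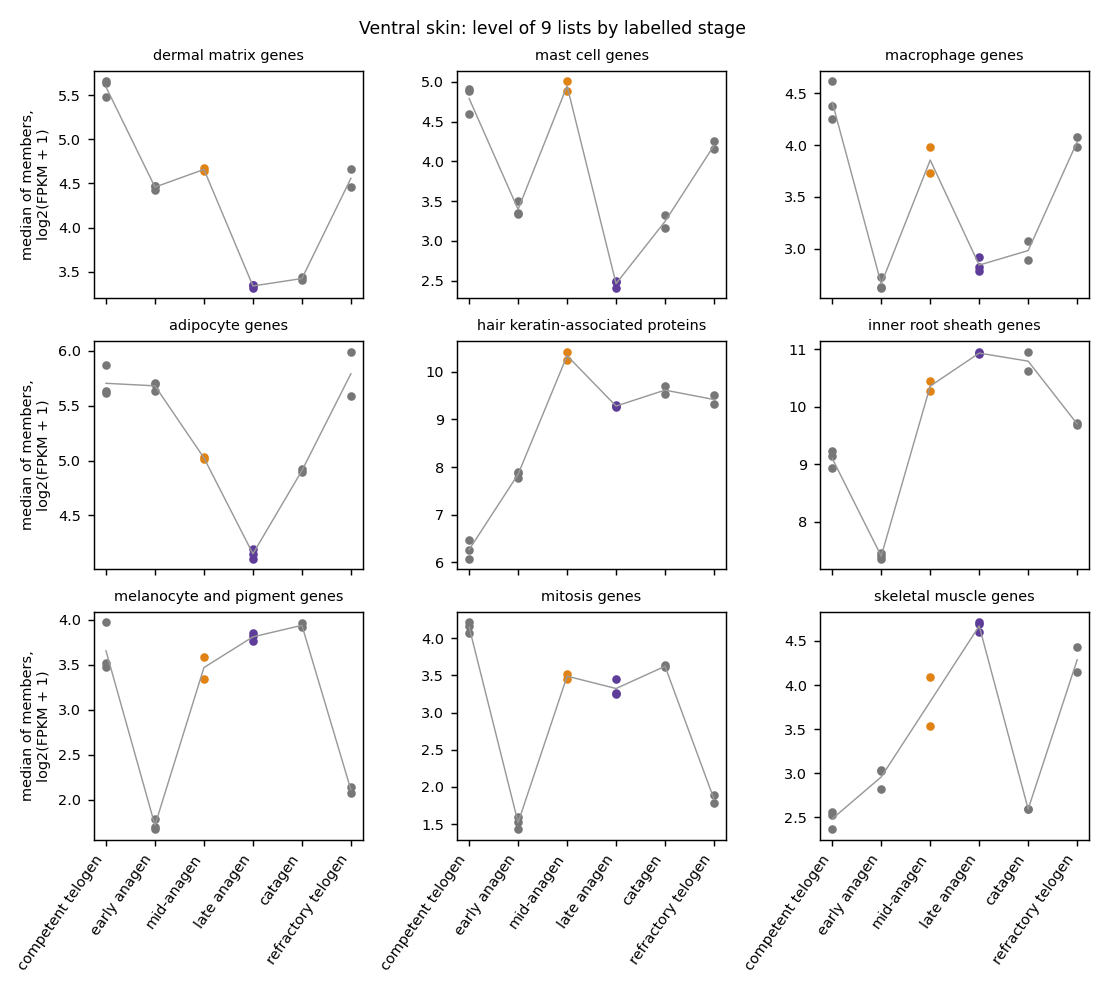
Median over list members of log2(FPKM + 1) (y axis) in each ventral library, by labelled stage (x axis), with a line through the stage means; mid-anagen is orange and late anagen purple. By this median, dermal matrix, mast cell and adipocyte genes were lowest in late anagen, while the summed level of the dermal matrix list was lowest in catagen (1767 to 1817 FPKM), and keratin-associated proteins were highest in mid-anagen.

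The changed genes were also placed among the 6 ventral stages by their stage means. Of the 2557 genes that rose, 1530 (59.8%) had their lowest stage mean of all 6 in mid-anagen, and 543 (21.2%) their highest in late anagen. Of the 2442 that fell, 765 (31.3%) were highest in mid-anagen and 612 (25.1%) lowest in late anagen. Over all genes tested, 23.3% were lowest and 9.19% highest in mid-anagen, and 9.18% were lowest and 7.72% highest in late anagen. Without the catagen library that has an ear location, a setting chosen after seeing the data, these 4 counts were 1521, 536, 764 and 598. Choosing genes by this contrast fixes part of these shares, so they are a description. Some levels at the other ventral stages went against their labels, as given above. This limits any placing among the 6 labelled stages, also that of single genes.

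Whether the change was particular to ventral skin was tested as a difference of changes, in 1 fit of the 15 mid- and late anagen libraries of the 3 domains. The change was more positive than in dorsal skin for 1894 genes (10.4% of 18264) and more negative for 1786 (9.78%). Compared to chin skin it was more positive for 2369 (13.0%) and more negative for 1610 (8.82%). Without chin late anagen replicate 2, the count of 2369 became 1535, and with scaling by the median of ratios it became 1563. The count of 1610 became 1035 at a minimum of 5 FPKM. In this fit 220 genes rose and 268 fell in dorsal skin, and 1703 rose and 2589 fell in chin skin.

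Stromal lists changed differently in ventral skin than in the other domains. Of 26 dermal matrix genes, 23 changed more negatively than in dorsal and 24 than in chin skin, where the medians were 0.38 and 0.67. Over all genes, 9.78% changed more negatively than in dorsal and 8.82% than in chin skin. For Eln the difference from dorsal skin was -2.94 ± 0.12 (SE), adjusted p = 1.55e-07, and that from chin skin -4.03 ± 0.13 (SE), adjusted p = 4.8e-08. In mid-anagen Eln was at 52.5 to 55.0 FPKM in ventral, 4.41 to 5.77 in dorsal and 4.0 to 4.23 in chin skin. In late anagen it was at 8.69 to 9.36, 7.56 to 8.03 and 14.44 to 14.47 FPKM. The domains thus differed mainly in the high ventral mid-anagen level of this gene. Mast cell genes changed more negatively in 5 of 6 against each domain. For Cma1 the difference from dorsal skin was -4.62 ± 0.35 (SE), adjusted p = 1.26e-05. In dorsal skin Cma1 was already low in mid-anagen, at 3.61 to 4.28 FPKM, and at 13.2 to 16.9 FPKM in late anagen. Macrophage genes were more negative in 15 of 23 against dorsal and 21 of 23 against chin skin, and adipocyte genes in 18 of 24 against each. The chin mid-anagen libraries differed widely, with Dpt at 30.1 in one and 99.2 FPKM in the other.

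Keratin-associated proteins changed more negatively than in dorsal skin in 43 of 56 and more positively in 2, and 30 of them rose in dorsal skin (median 0.52). Against chin skin the counts were 26 and 8. Over all genes, 9.78% changed more negatively and 10.4% more positively than in dorsal skin. Against chin skin these shares were 8.82% and 13.0%. Krtap20-2 moved more positively than in dorsal skin (2.36 ± 0.19 (SE), adjusted p = 1.64e-05) and more negatively than in chin skin (-3.30 ± 0.21 (SE), adjusted p = 2.7e-06). Pigment genes were more positive in 14 of 18 against dorsal and 13 of 18 against chin skin, where medians were -0.41 in both. In dorsal skin Dct was at 188 to 223 FPKM in mid-anagen and 149 to 155 FPKM in late anagen, above each ventral library at either stage. Immediate early genes were more positive in 8 of 14 against each domain.

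Skeletal muscle genes were more positive in 20 of 26 against dorsal skin, where 18 fell (median -1.37), and more negative in 25 of 26 against chin skin, where 24 rose (median 3.66). Over all genes, 10.4% were more positive than in dorsal and 8.82% more negative than in chin skin. The part of muscle in the differences of other lists was not tested.

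**Figure D4:**
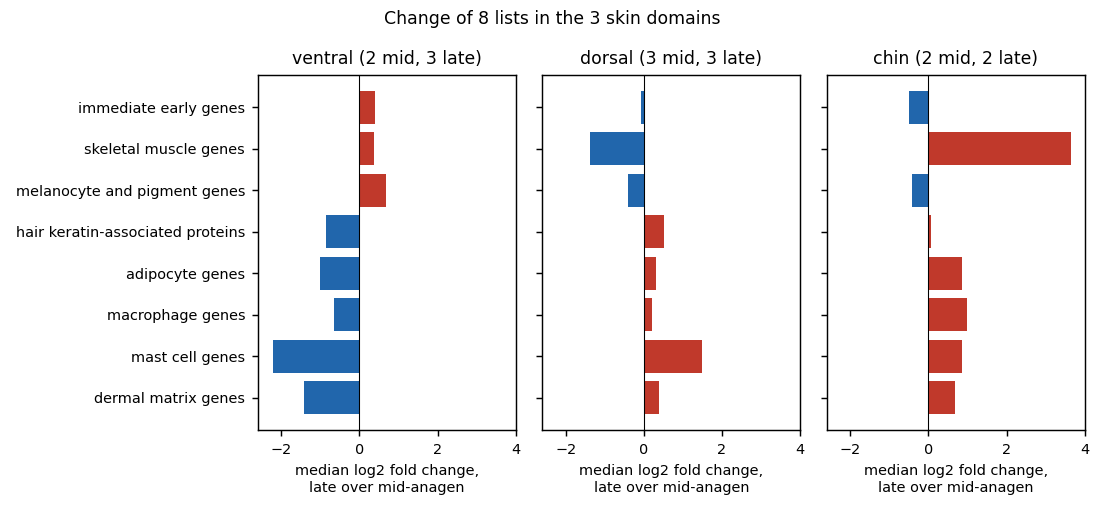
Median log2 fold change of late over mid-anagen (x axis) of 8 lists in ventral, dorsal and chin skin, each from the same fit of 15 libraries; bars start at 0, with rises in red and falls in blue. Dermal matrix, mast cell, macrophage and adipocyte medians are below 0 in ventral skin and above 0 in the other 2 domains.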

How the data were processed

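RNA of whole skin had been made into full-length cDNA libraries (SMART-seq2, tagmented) and read from both ends. The authors aligned to mm10 with GENCODE annotation, quantified with RSEM 1.2.25 and deposited FPKM values. They state a batch correction without its method, and whether the deposited values carry it is not given in the sources used here. Such a correction can move values between libraries. The 5 ear samples were not used here. From 46983 genes, those at 0.5 FPKM or more in at least 2 libraries of a fit were tested on log2(FPKM + 1) with limma 3.58.1 (trend) in R 4.3.3, two-sided, with Benjamini-Hochberg adjustment. The test was first tried on simulated data. Depth is an estimate from the steps of low FPKM values. Members and lists were chosen with earlier results of these data known, and 3 lists after the values here were seen. Named were the 10 largest changes each way (non-overlapping, mean of at least 5 FPKM, no predicted gene models), the 3 largest each way per list or its highest members up to 2, and the 5 largest each way per domain difference. The text prints a selection of these. Coordinates are from GENCODE on GRCm38. Alternatives are given in the closing section.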

Additional observations from a re-analysis of the deposited data

Results flagged for a closer look

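The change from mid to late anagen differed between ventral skin and another domain, by limma's test of the difference itself, for 1894 genes that were more positive and 1786 that were more negative against dorsal skin, and for 2369 and 1610 against chin skin. With groups of 2 or 3 libraries no outlier test was made.

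Against dorsal skin, the most negative differences among genes that met the naming rule were, on the log2 scale, -7.53 for mmu-mir-1892, -5.14 for Snord55, -4.62 for Cma1, -4.54 for Tpsb2 and -4.10 for Nnat. The most positive were 4.92 for Rny3, 4.84 for Mir5117, 3.48 for Rn18s-rs5, 3.44 for Xlr3b and 3.35 for Snora7a. Rny3 and Snora7a were each above 0 in only 1 of the 5 ventral libraries. In dorsal skin Rny3 was at 9.49 to 14.5 FPKM in mid-anagen and Snora7a at 4.66 to 10.9 FPKM, and both were at 0 in late anagen.

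Against chin skin, the most negative were -6.55 for mmu-mir-1892, -6.34 for Sln, -5.27 for Hamp2, -5.15 for Tpsb2 and -5.14 for Snord55. The most positive were 5.12 for the pseudogene Rps15a-ps6, 4.86 for Ifitm6, 4.84 for Mir5117, 4.42 for Serpinb6d and 4.07 for Ptprv. Sln, a regulator of the muscle calcium pump, was at 11.2 FPKM in one ventral mid-anagen library and 125 FPKM in the other. Small RNAs among these genes were at 0 in whole groups, so their fitted differences depend on the pseudocount.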

How the results depend on the processing

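Counts of changed genes in ventral skin held within 1.5 times under another pseudocount, either change of filter, 3 other scalings, no variance trend and both wider fits, at 1757 to 2682 higher and 1826 to 2687 lower genes. Leaving out 1 ventral library gave 1462 to 2187 higher and 1639 to 1972 lower genes. With the replicate number as a block (replicate block), 932 genes were higher and 1115 lower, and 66 of the 194 named calls were lost. In this fit the model takes up nearly all the data, so little is left to estimate the spread. Late anagen replicate 3 has no mid-anagen library of its number and so adds nothing to the comparison. The lower counts therefore do not show that the numbers pair the samples. Deviations of same-numbered libraries correlated at -0.025 and -0.079. With 2 mid-anagen libraries the deviations are mirror images, so these values cannot tell whether the numbers pair the samples. For the difference from chin skin, the more positive count was 1563 with the median of ratios, and 1535 to 3000 with 1 library left out, while the more negative count was 1035 at a minimum of 5 FPKM and 1236 to 2299 with 1 library left out. For the difference from dorsal skin, leaving out 1 library gave 1359 to 2558 and 1324 to 2427. The highest of these counts, 2558 more positive and 2422 or 2427 more negative, came without a chin mid-anagen library. Chin libraries enter this difference only through the estimate of spread that all groups of the fit share. Some settings leave fewer genes or samples, and the cause of these shifts was not tested. Prr9 changed direction under quantile normalization, to 0.06. Medians of 9 lists, between -0.14 and 0.11 except for the 1 cartilage gene tested, changed sign in at least 1 alternative: matrix and shaft transcription factors (0.03), neutrophil (0.1) and clock genes (0.01) without mid-anagen replicate 2, type I hair keratins (0.08), WNT response genes (-0.01) and simple epithelial genes (-0.01) without mid-anagen replicate 1, type I hair keratins also without late anagen replicate 1 (0.02), BMP ligands (-0.06) and cartilage genes (0.01) without a filter, and FGF (-0.52) and simple epithelial genes (-0.09) at a minimum of 5 FPKM. Of 194 named calls, 2 were lost with a pseudocount of 0.1, 26 without a filter, 24 with all 43 libraries, 46 with the ventral libraries of all 6 stages and 28 to 46 with 1 library left out. Depth and 2 mid-anagen libraries limit what small changes can show.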
